A study of Drosophila melanogaster with 2 samples.

Results

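MicroRNA genes of the fly were taken as the genes whose symbol starts with mir- on the 6 main chromosome arms, with 1 entry per hairpin gene, and they numbered 260 of 17683 genes. The annotation holds 262 such genes, and the other 2 lie off the main arms. The study mapped genome binding of Snail-eGFP, a transgenic fusion protein, in whole Drosophila melanogaster embryos of strain sna-GFP aged 0 to 24 h. Per the description chromatin was precipitated with an antibody against GFP, while the antibody label names sna, and it was sequenced, in 2 biological replicates of 1 group, so no condition was compared with another. All embryos carried the insertion, and the whole animal was used. Binding in few cells and weak binding in many cells therefore cannot be told apart.

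A microRNA is cut from a hairpin in a longer primary transcript, first by Drosha with its partner pasha in the nucleus and then by Dcr-1 with loqs in the cytoplasm. The mature strand is loaded into AGO1 and pairs with target transcripts mainly through its seed, the bases that follow its first base. A hairpin gene as annotated is the hairpin and not its promoter, which often belongs to a host gene, a coding or long noncoding transcript that carries the hairpin in an intron or exon. Snail is a zinc-finger repressor of the presumptive mesoderm and binds E-box sequences such as CAGGTG.

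The authors' lists come at 2 levels. A thresholded peak passed an irreproducible discovery rate (IDR) of 0.01, which measures how reproducibly peaks are ranked, and a candidate region is any entry of the longer ranked list. The pooled thresholded list held 4221 peaks on the main arms with a median signal of 109, and the pooled ranked list held 105842 candidate regions there with a median signal of 19.6. The signal is the authors' own enrichment value, its scale is not given, and it was read within a list only. No read counts were at hand, so the depth is unknown. A hairpin was said to have a peak where a thresholded summit lay within 2000 bp of it.

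Sequences of the microRNAs and peaks on which the results below turn are shown first, read by RefSeq coordinates from the Release 6 (dm6) genome. Mature RNAs are given 5′ to 3′ with the seed (bases 2 to 8) in capitals, for pairs that share a seed while 1 hairpin or both have a peak. The hairpins mir-92a and mir-92b, and likewise mir-276a and mir-276b, differ in whether they have a peak. The second contrast rests on a peak of 87.0 at mir-276a, below the list's median of 109 and in the thresholded list of replicate 1 alone. It also depends on the limit of 2000 bp, since mir-276b has a summit not far outside it. Both hairpins of the pair mir-980 and mir-4968 have a peak.
mir-92a, 3p arm, chr3R:25646560-25646581, plus strand: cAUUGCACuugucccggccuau
mir-92b, 3p arm, chr3R:25651457-25651478, plus strand: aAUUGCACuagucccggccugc
mir-276a, 3p arm, chr3L:10365281-10365302, plus strand: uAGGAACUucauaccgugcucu
mir-276b, 3p arm, chr3L:10319846-10319867, plus strand: uAGGAACUuaauaccgugcucu
mir-4968, 5p arm, chr3L:11552624-11552645, minus strand: uAGCUGCCacgguuuguugcuu
mir-980, 3p arm, chrX:280188-280209, minus strand: uAGCUGCCuugugaagggcuua

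Below are 30-base stretches of peaks, 5′ to 3′ on the strand given, with a match to a searched motif in capitals and any further match left unmarked. The first 4 hold CGATA, the core of the sites of the promoter and boundary proteins DREF and BEAF-32, and come from peaks at coding genes. The next holds CAGGTG, an E-box bound by Snail, and the last holds CAGGTA, the core of the site of the early activator Zelda. The CAGGTG stretch also holds an unmarked CAGGTA on its other strand. Both of these stretches lie at the start of a long noncoding host, in peaks of 97.1 and 79.9, below the list's median of 109. The first peak was in neither replicate's thresholded list and the second in that of replicate 1 alone. Of the 45 summits within 2000 bp of hairpins, CAGGTG was in 3 and CAGGTA in 0.
CG6325 start, beside mir-994 and mir-318, chr3R:10407360-10407389, minus strand: aagctctatctatCGATAgttcaattacga
ewg start, beside mir-980, chrX:279582-279611, plus strand: tttttcagacgtCGATAatgtacacgcaat
Cdk2 start, host of mir-995, chr3R:20735550-20735579, minus strand: cagcgccacatatCGATAagaattccttaa
bun start, host of mir-967, chr2L:12546774-12546803, plus strand: tcgtgcgatataCGATAtcgtttacatatc
lncRNA:CR43314 start, host of mir-bft, chr2L:11971196-11971225, plus strand: accgtattagcaCAGGTGtaattacctgcc
lncRNA:CR45916 start, host of mir-9a, chr3L:19562517-19562546, minus strand: taaggccgctgcCAGGTAtctcgtcggtgt

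The hairpins ranged from 50 to 174 bp in length, with a median of 92 bp. Introns held 117 of them, exons of noncoding genes 49, coding exons 23 and UTRs 23, and 48 touched no long gene. Lying wholly inside a coding gene or a noncoding gene of at least 200 bp made a hairpin hosted, which held for 209, and the other 51 were called intergenic. Neighbours closer than 10000 bp were counted as 1 locus, which gave 198 loci. Of these, 27 held 2 or more hairpins, and the largest held 12. Hairpins of 1 locus can share a peak and are not independent of each other.

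Fewer hairpins lay beside a Snail-eGFP peak than genes in general. A thresholded summit lay within 2000 bp of 40 of 260 hairpins, or 15.4% (95% Wilson interval 11.5 to 20.3%), against 36.5% of all genes. The share was 40.7% of coding genes, which are longer and carry their own start site. Among small noncoding genes of like size it was 46.5% of the 269 snoRNA genes (40.6 to 52.4%) and 50% of the 290 tRNA genes (44.3 to 55.7%). The interval of the hairpins overlaps neither of these, and it lies above the 9.91% found when a feature of 92 bp was placed at every position of the arms. These intervals cover counting error only, and hairpins are not replicates.

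Distance to a start site separated the hairpins further. The start of a coding or long noncoding gene lay within 2000 bp of 132 hairpins, and 36 of these had a peak, or 27.3% (20.4 to 35.4%). Of the 128 hairpins farther away 4 had one, or 3.12% (1.22 to 7.76%), a difference of 24.1 percentage points (15.9 to 32.5). With the list of replicate 2 alone the share away from starts was 0.781%. Positions of the arms gave 23.8% near a start and 1.70% away from one, and both values lie inside the hairpins' intervals. By contrast, tRNA genes away from start sites still had a peak in 71 of 156 cases, or 45.5% (37.9 to 53.3%), and snoRNA genes in 10 of 80, or 12.5% (6.93 to 21.5%). Near a start the shares were 55.2% for tRNA genes and 60.8% for snoRNA genes.

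**Figure D1:**
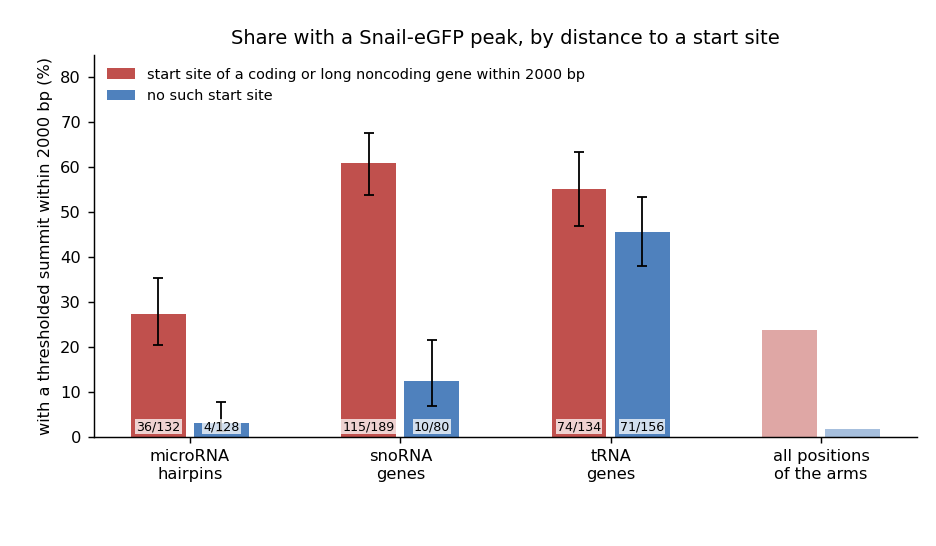
Share of microRNA hairpins, snoRNA genes and tRNA genes with a thresholded summit within 2000 bp (y axis, percent), split by whether a start site lies within 2000 bp; bars carry counts and 95% Wilson intervals, and the pale bars give the same share over all positions of the arms. Hairpins away from start sites (4 of 128) were close to the positions, while tRNA genes away from start sites (71 of 156) were not.

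Shares of hosted and intergenic hairpins with a peak lay close together, though the positions they occupy differ. Of the hosted ones 32 of 209 had a peak, or 15.3% (11.1 to 20.8%), and of the intergenic ones 8 of 51, or 15.7% (8.17 to 28%), a difference of -0.375 points (-13.4 to 8.94). The interval leaves room for a difference of either sign. Positions inside a host gene gave 11.7% and intergenic positions 5.94%, so the hosted share includes the value of its positions and the intergenic share lies above it. Near a start site the shares were 28 of 104 hosted hairpins (26.9%) and 8 of 28 intergenic ones (28.6%, 15.3 to 47.1%), against 26.2% and 16.8% of such positions. Away from start sites they were 4 of 105 (3.81%) and 0 of 23 (upper limit of the interval 14.3%).

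Shares by kind of host lay farther apart, though their intervals overlap. Hairpins with a coding host had a peak in 30 of 166 cases, or 18.1% (13 to 24.6%), and those with a noncoding host alone in 2 of 43, or 4.65% (1.28 to 15.5%). Counting only coding genes as hosts therefore turned the sign of the difference, with 18.1% of hosted and 10.6% of the remaining hairpins (7.43 points, -1.93 to 15.5). A host on the same strand went with a peak in 26 of 182 hairpins (14.3%), and a host on the opposite strand only in 6 of 27 (22.2%, 10.6 to 40.8%), and these intervals overlap as well. By arm, the counts were 6 of 56 on 2L, 10 of 55 on 2R, 5 of 31 on 3L, 8 of 58 on 3R, 0 of 2 on 4 and 11 of 58 on X, with intervals that all overlap.

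Where a hairpin did have a peak, its strongest one mostly lay above the list's median. Only the strongest summit of each hairpin was taken, while the list's values cover all its peaks. That choice favours the 8 hairpins with 2 or more peaks, and all 45 nearby summits were not compared with the list. The strongest peak per hairpin had a median signal of 212 (quartiles 100 and 271, range 71.6 to 447), against 109 for the list. Of the 40 hairpins, 29 lay above the list's median and 10 above 277, its 90th percentile. Hosted hairpins had a median of 226 and intergenic ones of 202. The 40 hairpins shared 35 distinct strongest peaks at 35 loci, 32 of them had 1 peak, and the most was 4, at mir-2497. The summit lay upstream of 23 hairpins, downstream of 16 and inside 1, with a median distance of 851 bp (quartiles 482 and 1374).

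**Figure D2:**
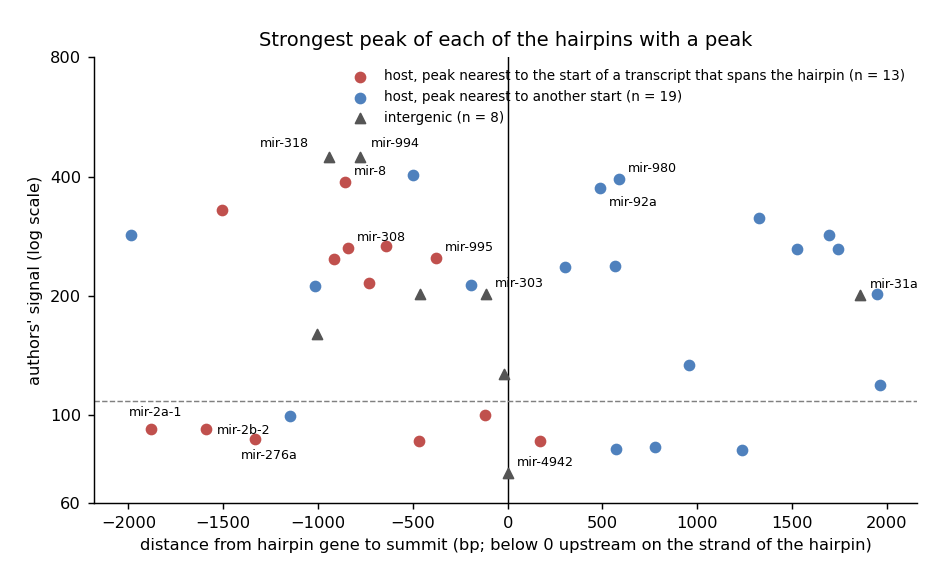
Strongest peak of each of the 40 hairpins, as the distance from hairpin to summit on the hairpin's strand (x axis, bp) against the authors' signal (y axis, log scale), with the dashed line at the list's median of 109; red marks the 13 hosted hairpins whose nearest start, at any distance from the summit, opens a transcript through the hairpin, blue the 19 other hosted ones and triangles the 8 intergenic ones. Peaks lay on both sides of the hairpins, and the strongest (447, mir-318 and mir-994) was upstream of an intergenic pair.

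Most of these peaks stood at promoters, as did the list. Of the 45 summits within 2000 bp of any hairpin, 37 lay within 500 bp of a start site, or 82.2%, against 81.9% of the whole list. For 15 of the 32 hosted hairpins the start nearest to the strongest summit belonged to a host read on the same strand. For 4 it belonged to a host read on the other strand, and for 13 to another gene. The 8 intergenic hairpins have no host, so their nearest start always belonged to another gene. In 10 of the 40 cases the nearest start lay within 500 bp of the summit and its annotated transcript runs through the hairpin. These were mir-4910, mir-4912, mir-308, mir-8, mir-276a, mir-4968, mir-3642, mir-4918, mir-4911 and mir-995.

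The strongest peak beside any hairpin had a signal of 447 and lay at chr3R:10407195-10407485, with 241 in replicate 1 and 208 in replicate 2. It stood 779 bp upstream of mir-994 and 944 bp upstream of mir-318, an intergenic pair of which mir-318 acts in the follicle cells of the egg chamber. Its nearest start, 73 bp away, was that of CG6325, which is read away from the pair. No annotated transcript joins that start to the hairpins.

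The hairpin mir-8, a member of the miR-200 family that controls body growth through insulin signalling, had a peak of 387 at chr2R:16830386-16830698. Its signal was 204 in replicate 1 and 164 in replicate 2, and it was in both thresholded lists. The summit lay 859 bp upstream of the hairpin and 116 bp upstream of a start of the host lncRNA:CR43650, and a second peak of 114 stood at the other start of that host. None of the 5 searched motifs lay within 100 bp of its stronger summit.

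In an intron of jigr1 lies mir-92a, which acts with mir-92b in neural stem cells. Its peak of 374 at chr3R:25646949-25647207 had 217 in replicate 1 and 140.5 in replicate 2. That peak and a second of 184 stood downstream of the hairpin, at internal starts of jigr1 whose transcripts do not include it. For mir-92b, the nearest summit was 3222 bp away and the strongest candidate region had a signal of 40.1.

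Intronic and exonic hairpins whose peak stood at their host's own start included mir-308 in RpS23, a protein of the small ribosomal subunit, with 264 (145 and 90.4 in replicates 1 and 2). The peak of mir-995 in Cdk2, a cyclin-dependent kinase, had 249 (125 and 116). Further such peaks had 329 at Apt1 (mir-3642), 267 at Fnta (mir-4912), 248 at ND-23 (mir-4911), 216 at Mob2 (mir-4968) and 100 at tex (mir-4918), and the peak of CG3225 (mir-4910) had 86.0. All of these were above the list's median except those at tex and CG3225.

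**Figure D3:**
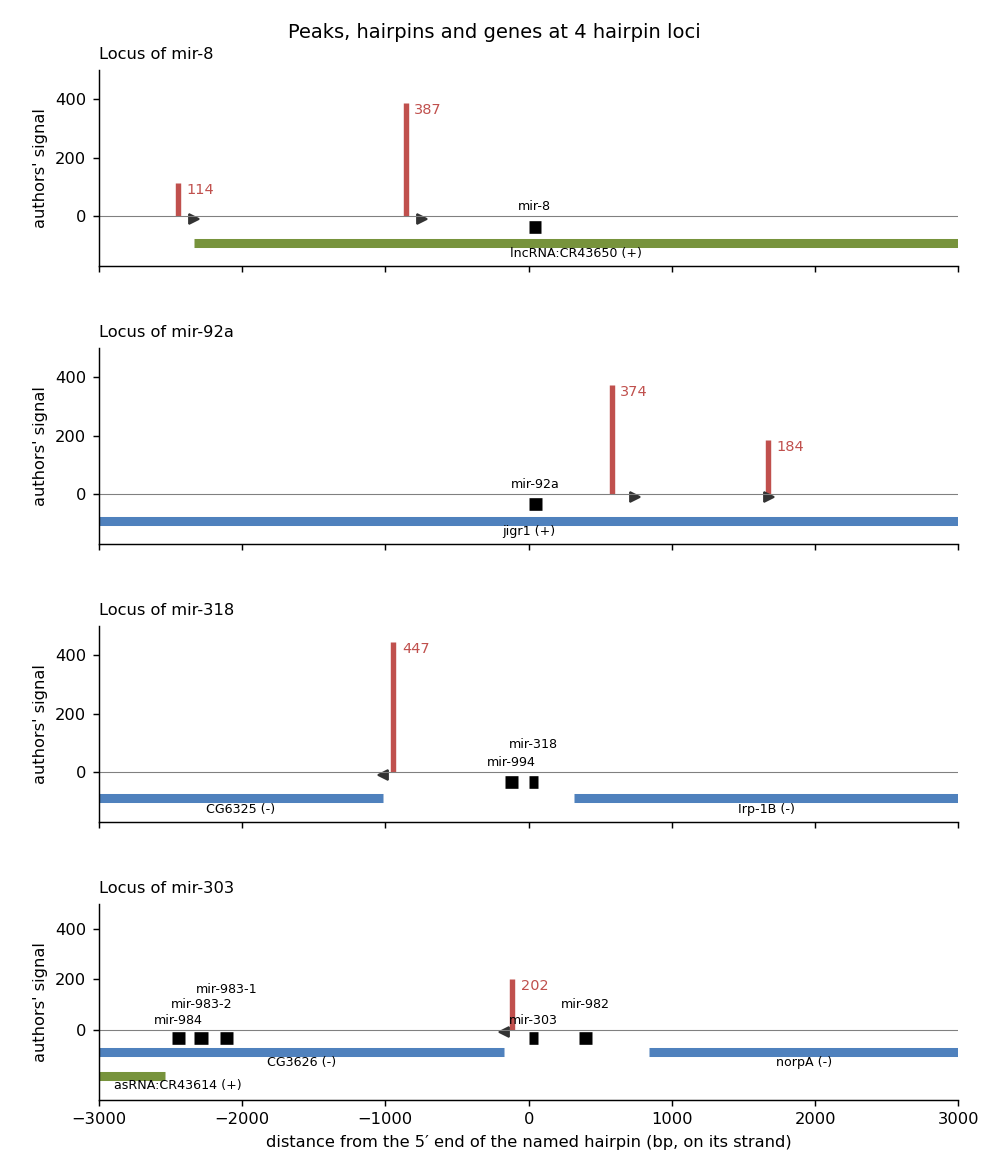
Thresholded summits (red, height is the authors' signal), hairpins (black), start sites (arrowheads) and genes (blue coding, green noncoding, with the strand relative to the hairpin) around mir-8, mir-92a, mir-318 and mir-303, by distance from the 5′ end of the named hairpin (x axis, bp). The mir-8 peak of 387 was upstream of a host start, the mir-92a peaks of 374 and 184 were downstream of the hairpin, and the peaks of 447 and 202 stood at starts of genes read the other way.

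Most of the remaining peaks stood at starts of neighbouring genes. The peak of 404 beside mir-3643, in OstDelta, lay 95 bp from the start of asRNA:CR44416 and 110 bp from that of OstDelta itself. That of 394 beside mir-980, a microRNA that limits memory formation, lay at chrX:279472-279763, 50 bp from the start of ewg, an activator of nuclear genes for respiration. A start of ND-B14.5A held the peak beside mir-3641 (315), one of su(sable) that beside mir-9372 (285, also 192 bp from a start of the host Dredd), and one of grp, the fly Chk1 kinase, that beside mir-2497 (285). A weaker peak of 260.2 beside mir-2497 lay 12 bp from a start of its host her.

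Both mir-281-1 and mir-281-2, which lie in Oda, had the peak of SmD3, a core spliceosome protein (263). Starts of FucT6 (236, mir-9370), Pop1 (213, mir-3645, also 71 bp from a start of the host Mlc-c), fab1 (201, mir-31a), PIG-K (160, mir-2496), CG31126 (134, mir-1003), Atg13 (99.8, mir-9380) and CG30020 (81.9, mir-1008) held others. Of these hairpins, mir-1003 and mir-1008 are mirtrons, short introns that splicing itself frees as the hairpin. At the opposite-strand start of CG3626 a peak of 202 was shared by mir-303, mir-982 and mir-983-1, with 136 in replicate 1 and 75.8 in replicate 2. Other antisense or overlapping cases were mir-4957 in Top1 (238), mir-4970 in CG6729 (119.5) and mir-11182, which overlaps CG5726 (127), and the strongest summit of mir-4942, at ND-MLRQ (71.6), lay inside the hairpin.

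Few peaks beside hairpins lay away from promoters. The strongest had a signal of 212 in mam, a Notch coactivator, 1017 bp from mir-4978 and 2176 bp from a start. A weaker one of the 3 summits beside mir-4978 lay inside the hairpin itself. In spi, which encodes an EGF receptor ligand, mir-2a-1 and mir-2b-2 shared a peak of 92.6, 755 bp from a start, with 44.1 and 43.9 in replicates 1 and 2 and in neither replicate's thresholded list. The remaining 3 were those of mir-2282 in sty, an antagonist of receptor tyrosine kinases (86.4), mir-4962 in Tlk (83.4) and mir-4909 in CG1941 (82.1). The peak of mir-4909 lay 528 bp from a start of Dgat2, just past the limit of 500 bp.

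Peaks beside hairpins were then looked up in each replicate's own list. Of the 35 distinct peaks, 24 overlapped the thresholded list of both replicates by at least 1 bp, 7 that of replicate 1 alone, 0 that of replicate 2 alone and 4 neither. In the whole list 44.4% were in both, 29.5% in 1 and 26% in neither, and no test of the difference was made. The sets are unlike, since the 35 are the strongest peaks of their hairpins and the list's shares cover all its peaks. Their median signals were 213 and 109. Median signal was 256 for the hairpin peaks in both lists, 86.4 for those in replicate 1 alone and 88.0 for those in neither. The ranges overlap, since peaks in both went down to 99.8 (mir-9380) and those in replicate 1 alone up to 134 (mir-1003). Signals ran from 38.5 to 244 in replicate 1 (median 131) and from 15.4 to 208 in replicate 2 (median 88.5). The lists' own medians were 81.1 and 72.0, and values were not compared between the lists.

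Each replicate on its own placed a peak beside 36 hairpins (replicate 1, where all genes gave 30.1%) and 28 hairpins (replicate 2, all genes 23.5%). All 28 were among the 40, as were 35 of the 36, the other being mir-317. The list made from the pair of replicates gave 39 hairpins, where all genes gave 34%, and 35 of these were among the 40. The 4 added were mir-317, mir-2501, mir-9388 and mir-983-2.

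**Figure D4:**
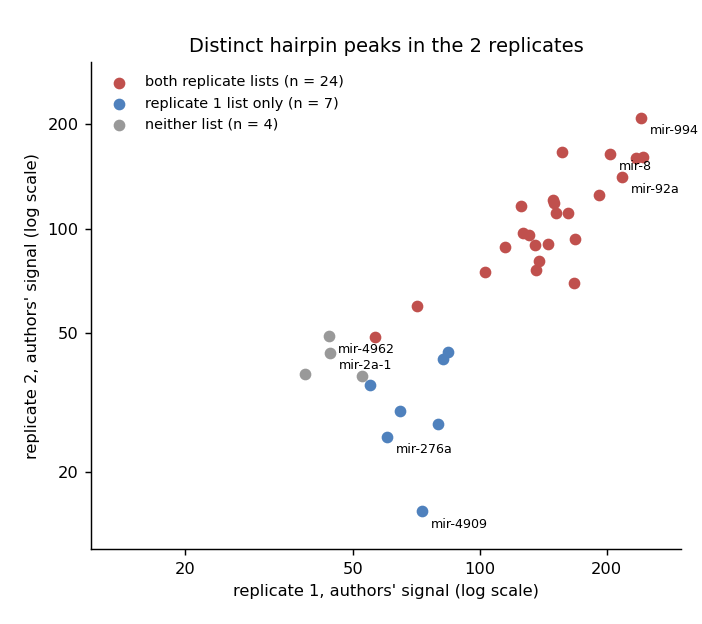
Authors' signal of the 35 distinct hairpin peaks in replicate 1 (x axis) and replicate 2 (y axis), both on log scales, coloured by which replicate's thresholded list held them. The scales of both axes are the authors' own and were not compared, and the 24 peaks found in both lists reach farthest on both axes, with some overlap with the others at the low end.

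Candidate regions were too dense to tell hairpins apart by presence. One lay within 2000 bp of 235 of 260 hairpins, or 90.4% (86.2 to 93.4%), against 92.9% of all genes, 94.4% of coding genes, 98.3% of tRNA genes, 92.6% of snoRNA genes and 79.3% of positions. A hairpin had a median of 4 such regions and at most 10, and 25 hairpins had none. The signal of the strongest region differed more, with a median of 37.0 for hairpins, 65.4 for snoRNA genes and 81.8 for tRNA genes. It was 51.6 for hairpins near a start site and 29.7 for those away from one. Genes with no region counted as 0 in all of these medians.

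Of the 220 hairpins without a thresholded peak, 25 had no candidate region either. For the others the strongest candidate had a median of 35.8, with those 25 left out rather than counted as 0. Far above the rest stood mir-2283, with 322 (225 and 118 in replicates 1 and 2) at a start of CG8176, and mir-2493, with 256 (128 and 119.7) at a start of CG42788. Their −log10 IDR values of 5.0 and 4.86 exceed the limit of 2.000 seen in the thresholded list, yet that list does not hold them. The same held for mir-9374, with 2.58 and a signal of 82.6 near a start of Hr39. In all, 4360 ranked regions reach that limit and 4221 are listed. Below that limit the strongest were mir-ban (89.1), mir-317 (87.7), mir-2501 (86.3), mir-9388 (82.5), mir-4977 (75.1), mir-4974 (71.7) and mir-4917 (71.1).

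Some hairpins lay close to the limit of 2000 bp on either side. Just inside it lay mir-983-1 at 1948 bp (signal 202), mir-4970 at 1963 bp (119.5) and mir-9372 at 1986 bp (285). Just outside lay mir-966 at 2050 bp (signal 75.8), mir-4943 at 2063 bp (86.5) and mir-992 at 2066 bp (196).

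Several well-studied developmental microRNAs had no peak nearby. The muscle microRNA mir-1 was 58465 bp from the nearest summit and the neuronal mir-124 was 65224 bp from one. The cluster of mir-100, mir-let7 and mir-125, which times metamorphosis, lay 16852, 17452 and 17733 bp away. No candidate region lay within 2000 bp of mir-124, mir-let7, mir-125, mir-10 or mir-315, while those of mir-1 and mir-100 reached 39.6 and 35.5.

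In the Hox complexes, mir-10 lay 49964 bp from a summit, and mir-iab-4 and mir-iab-8, which repress Hox transcripts, lay 8825 bp from one with candidates of 24.7. Of the cluster that clears maternal transcripts in the early embryo, mir-309 and mir-3 were 7324 and 7435 bp away, and their strongest candidate was 56.5. Farther out were mir-184, which acts in the female germline (94582 bp, candidate 27.9), mir-11 (38487 bp, 65.9), mir-282 (25479 bp, 47.8), mir-14, a suppressor of cell death (25036 bp, 56.6), and mir-12 (22542 bp, 30.4). The same held for mir-278, a regulator of energy balance (18879 bp, 63.2), mir-305 (13572 bp, 49.5), mir-275 (13395 bp, 57.7) and mir-315 (11645 bp).

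Nearer, but still outside 2000 bp, were mir-34 (7266 bp, 43.1), mir-277 (6352 bp, 43.1), mir-ban (6217 bp), mir-13b-2 (5277 bp, 61.6), mir-279 (4410 bp, 47.8), mir-310 (3631 bp, 48.1) and mir-33 (3266 bp, 58.7). The closest were mir-996 (2814 bp, 52.6), mir-9a (2599 bp, 50.5), mir-7, which acts in photoreceptor differentiation (2586 bp, 26.4), and mir-276b (2235 bp, 27.3). None of these candidates reached the thresholded list.

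A hairpin with a host on its own strand can be made from that host's transcript. Summits within 500 bp of the start of a same-strand transcript that runs through the hairpin were therefore counted too. This measure was added after the first results were seen. Such a peak was found for 68 of 182 hairpins, or 37.4% (30.7 to 44.6%), and 50 of the 68 had no peak within 2000 bp. Hairpins that share a host were each counted. Of all coding and long noncoding genes, each counted once, 24.2% had a summit within 500 bp of an own start. For the 68 hairpins the start of the spanning transcript lay 123 to 101143 bp from the hairpin, with a median of 7259 bp. Signals of the 57 distinct peaks ran from 67.2 to 604 with a median of 130.4, and 29 were in both replicates' lists, 13 in 1 and 15 in neither. With either replicate alone the count was 45 (replicate 1) or 41 (replicate 2), and with peaks above the list's median it was 42.

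Over distinct hosts, 55 of 128 coding hosts had a summit at an own start, or 43.0% (34.7 to 51.6%), against 27.5% of all coding genes. Noncoding hosts had one in 7 of 37 cases, or 18.9% (9.48 to 34.2%), against 5.78% of all long noncoding genes. Hosts have more annotated starts, a mean of 2.21 against 1.41 for coding genes and 1.65 against 1.07 for noncoding ones. The part of start number in these shares was not tested.

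The strongest coding case was bun, a TSC22-domain gene that promotes growth and holds mir-967 86511 bp into the transcript, with a peak of 604 (371 and 258 in replicates 1 and 2). Next came chk with mir-4975 (439.7), kis, a chromatin remodeler, with mir-965 (407), OstDelta with mir-3643 (404) and Kpc1 with mir-3644 (377). At grp a peak of 285 lay at the start of the transcripts of mir-9b, mir-9c, mir-79 and mir-306, and at Gmap one of 201 lay at that of mir-12 and mir-283. All of these lay in both replicates' lists.

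Several developmental microRNAs with no peak beside the hairpin had one at a host start. Bantam (mir-ban), which promotes growth and blocks cell death, had 113 at a start of lncRNA:CR43334, 13738 bp before the hairpin, with 36 in replicate 1 and 72.7 in replicate 2. That peak was in the list of replicate 2 alone. For mir-9a, which sharpens the choice of sensory organ precursors, the peak at lncRNA:CR45916 had 79.9 (46.7 and 31.6) and was in the list of replicate 1 alone. At lncRNA:CR43314, the host of mir-bft, also named mir-263a and known to protect bristle progenitors, it had 97.1 (50.4 and 40.0) and was in neither.

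Hairpins mir-13b-1, mir-13a and mir-2c shared a peak of 130.4 (74.0 and 42.5) at lncRNA:CR45911, and mir-277 and mir-34 one of 73.0 (32.9 and 51.2) at lncRNA:CR43459. For mir-276a, which acts in the brain in memory, the peak of 87.0 (60.2 and 25.2) 121 bp upstream of a start of lncRNA:CR46006 also lay within 2000 bp of the hairpin. Of the noncoding hosts, the mir-8 host alone had a peak in both replicates' lists. Hosts without one included those of mir-1 (strongest candidate at a start 60.1), mir-iab-8 (71.2), the let-7 cluster (40.1) and mir-92b (39.1), and lncRNA:Hsromega, the host of mir-4951, had an unlisted candidate of 188.

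**Figure D5:**
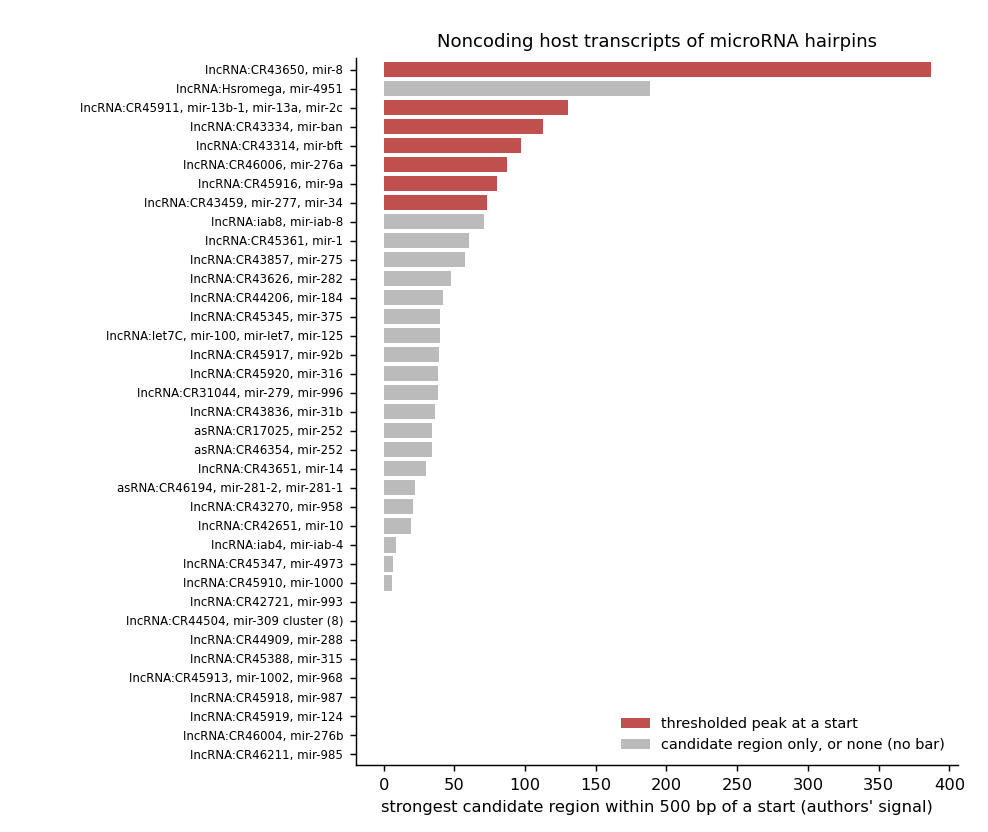
Strongest candidate region within 500 bp of a start of each of the 37 noncoding hosts (x axis, authors' signal), labelled with the hairpins each holds; red bars have a thresholded peak there and grey bars do not. The mir-8 host (387) stands apart, and the other 6 hosts with a peak lie between 73.0 and 130.4.

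Windows of 100 bp on each side of a summit were searched on either strand for each motif, and a summit counted once per motif. Of the 45 hairpin summits, 29 held CGATA, or 64.4% (49.8 to 76.8%), against 55.1% of the list and 60.9% of its promoter summits. CAGGTG was in 3, or 6.67% (2.29 to 17.9%), against 6.44% of the list, and CAGGTA in 0 (upper limit 7.87%), against 4.60%. GAGAG, the site of GAGA factor, was in 15.6% (7.75 to 28.8%) against 29.2%, and GGTCACACT, the site of the promoter factor M1BP, in 8.89% (3.51 to 20.7%) against 3.96%. The interval of GAGAG leaves out the list's value by a small margin and includes the 25.4% of promoter summits, and the other 4 intervals include both.

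At the start peaks of coding and noncoding hosts the same motifs were counted. CGATA lay at 32 of the 50 distinct peaks at coding host starts, or 64.0% (50.1 to 75.9%), near the 61.6% over all coding starts with a peak. None (0) of the 7 peaks at noncoding host starts held it (upper limit 35.4%), against 45.2% of 166 such peaks at all long noncoding genes. Where no coding start was as near, that background was 14 of 61, or 23.0% (14.2 to 34.9%), a value that the limit for the 7 peaks includes. GAGAG was in 28.0% of the coding and 28.6% of the noncoding host peaks. Those 7 peaks held CAGGTG once, at mir-bft, CAGGTA at mir-bft and mir-9a, and GAGAG at mir-bft and at the host of mir-277 and mir-34. A match is a description of the letters in the window only.

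Seeds were compared with the share of 15.4% of hairpins with a peak. Mature RNAs numbered 481 with 426 different seeds, and 8 seeds were common to 3 or more hairpins. The seed AUCACAG, of the mir-2, mir-13, mir-6 and mir-11 group that restrains cell death genes, was in 14 hairpins, of which mir-2a-1, mir-2b-2 and mir-308 had a peak. AUUGCAC was in 6, with a peak at mir-92a, CACUGGG in mir-3, mir-309 and mir-318, with one at mir-318, and AGCACCA in mir-285, mir-995 and mir-998, with one at mir-995. The other 4 seeds, of mir-9a, mir-9b and mir-9c, of mir-279, mir-286 and mir-996, and 2 of the mir-10404 hairpins, had none. Another 25 seeds were common to 2 hairpins, and both had a peak for 2 of these seeds, in mir-281-1 and mir-281-2, which share the peak, and in mir-980 and mir-4968, on different arms.

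Genes of the microRNA pathway itself were looked up as well. Their list is short, and its shares carry no interval and were not tested against those of coding genes. Of 15 listed genes, 9 had a summit within 2000 bp, against 40.7% of coding genes, and 7 had one within 500 bp of an own start, against 27.5%. In the nucleus and cytoplasm these were the hairpin-cutting Dcr-1 (signal 102), the exporter Ranbp21 (83.4), the effector AGO1 (184) and the trimming exonuclease Nbr (115). From the small interfering RNA branch they were r2d2 (204), AGO2 (127) and the methyltransferase Hen1 (120.4). The peaks counted for the Drosha partner pasha (107) and the Dcr-1 partner loqs (147) lay outside these genes, 1765 and 4828 bp from their own starts. No peak lay at drosha, gw, Ars2, Tailor, me31B or Dcr-2.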

How the data were processed

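Chromatin immunoprecipitation was done on 2 biological replicates of 1 group of sna-GFP embryos, with chromatin sonicated to 200 to 800 bp per the labels. Neither the aligner nor the peak caller is given in the sources used here, and control samples were not analysed here. The authors deposited narrowPeak lists on dm6, of which 2 kinds (ranked and thresholded) exist for each replicate, the pool and the pair of replicates. Column 7 is the authors' signal, used as given and within a list only. The IDR column holds deposited −log10 values, and the thresholded lists hold regions with an IDR of at most 0.01. No counts are given, so depth is unknown.

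Gene models came from Ensembl release 115 and sequence from the NCBI copy of the Release 6 assembly, both of the build of the lists. The annotation names let-7 and bantam mir-let7 and mir-ban, so both are members. Distances run from the hairpin's nearest base to the summit. A replicate's signal at a pooled peak is that of the strongest region of its ranked list that overlaps the peak by at least 1 bp. Shares carry 95% Wilson intervals, differences Newcombe intervals from them, and both cover counting error only. No p-value was computed, since there is 1 group and hairpins are not replicates. Python 3.11.15 with scipy 1.17.1 was used, and the counting rules were tested on simulated data.

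Named are all hairpins with a peak, a list of well-known microRNAs whatever their values, the 10 strongest without a peak and 3 on either side of the distance limit. Other names, among them the host-start cases, were chosen after their values were seen. Members, lists and motifs were chosen with earlier results of these data known, and the host-start counts were added after seeing the data. Alternatives were other distances, other lists, stronger peaks, loci, coding hosts only and other motif windows.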

Additional observations from a re-analysis of the deposited data

How the results depend on the processing

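The distance set most values. At 500 bp 13 hairpins had a peak (hosted 4.31%, intergenic 7.84%, near a start 8.33%, near minus away 6.77 points), and at 1000 bp 26 did (hosted 9.57%, near a start 18.2%). At 5000 bp 86 did, with 31.6% of hosted, 39.2% of intergenic, 43.2% of near and 22.7% of away hairpins. With peaks above the median signal 10.5% of hosted and 0.781% of away hairpins had a peak, and 42 had one at a spanning transcript's start. Calling a start near only within 500 bp gave 12.5% away and a difference of 14.4 points. Leaving out a replicate gave 28 to 36 hairpins, a median signal of 96.4 to 136 on those lists' own scales, 10.5 to 13.4% of hosted and 0.781 to 2.34% of away hairpins, and 41 to 45 with a peak at a spanning start. Within 50 bp of summits CAGGTG and GGTCACACT were at 0%, and within 250 bp CAGGTA was at 11.1%, CGATA at 84.4% and GAGAG at 35.6%. The whole list's shares at these 2 widths were not computed, nor those of all genes or positions at 500, 1000 and 5000 bp. The values at these settings therefore describe hairpins only. Counting coding hosts only turned the host minus intergenic difference to 7.43 points (-1.93 to 15.5). Of 107 recomputed values, 79 stayed within their limit, which was 1.5 times for counts and the reported value's 95% interval for shares and medians. No paired analysis was possible because there is only 1 group. Unknown depth and 2 replicates limit what weak regions can show.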
